A study of Homo sapiens with 16 samples.

Results

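The transcripts of 56 genes of mitosis and of the passage from G2 into M phase were followed in 16 RNA sequencing libraries from 2 established human colorectal cancer cell lines, HT55 and SW948. The genes were chosen by function and matched by symbol to the Ensembl identifiers of the count files. A gene was kept if it had 10 or more counts in all 4 libraries of at least 1 group, and all 56 of the 56 genes met this rule, against 13075 of the 54127 genes listed. Cells were grown attached to the dish in serum and given itraconazole, an azole antifungal, at 5 µM or its solvent DMSO, with RNA taken at day 6. Each line therefore gave a control group (DMSO) and a treated group (itraconazole), and each of these 4 groups held 4 libraries. No gene was altered by experiment in either line for these libraries, and each group came from a single cell line.

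The products of these genes act in a fixed order. Cyclins A and B activate CDK1 to start mitosis, condensin compacts the chromosomes, and kinetochores attach them to the spindle under the watch of the spindle checkpoint. CDC20 then activates the anaphase-promoting complex (APC/C), which marks securin and cyclin B for destruction, and a central spindle directs the final division of the cell. Most of these transcripts are held low in G1 and peak in G2 and M phase, under the DREAM and MuvB complexes with MYBL2 and FOXM1. Colorectal cancer lines divide continuously in culture, so the transcripts are abundant in them.

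Gene counts per library ran from 8269406 to 11110814, and the 56 genes took between 0.507% and 0.801% of them. All 12 colonic epithelial markers examined, such as EPCAM and CDX2, had a mean of at least 1 count per 1000000 gene counts (CPM) in every group. Of 6 leukocyte markers only CD68 reached a mean of 1 CPM, and the summed level of the 6 ran from 94.7 to 109 CPM in SW948 with itraconazole against 18.7 to 27.8 CPM in its controls, while CD3E was at 0 in all 16 libraries. The epithelial markers went both ways in SW948. CDX2 was at 68.3 to 159 CPM with itraconazole against 226 to 268 CPM in controls, and CDX1, CDH1, VIL1, CDH17 and GPA33 were also lower. EPCAM, KRT8, KRT18, KRT19 and LGALS4 were higher, and the treated and control ranges of KRT20 overlapped. The summed level of the 12 was 9431 to 10461 CPM with itraconazole against 8901 to 9279 CPM in controls. The mitochondrial share of gene counts was 2.05% to 2.97% against 1.06% to 1.48% in SW948 and 2.65% to 3.06% against 2.11% to 2.19% in HT55, treated against control. Leaving out the mitochondrial and the 20 most abundant genes kept the numbers of called genes among the 56 within 1.5 times, and the part of the marker differences in the results was not tested. Replicates differed by more than counting noise. The chi-square per degree of freedom was 1.43 to 2.34 among HT55 DMSO libraries and 4.88 to 40.4 among HT55 itraconazole libraries. In SW948 it was 2.45 to 4.85 among DMSO libraries and 3.76 to 21.5 among itraconazole libraries. In the treated HT55 group, replicate 3 was the lowest of the 4 libraries for 27 of the 56 genes and replicate 2 the highest for 37. In SW948, replicate 3 was the lowest for 37 of the 56 genes among the controls and for 41 among the treated libraries. Such ranks were not counted over all genes, so whether they are particular to the 56 is not known. Labels give no batch. In these bulk samples fewer cells in mitosis and less RNA per mitotic cell cannot be told apart.

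Levels are given as CPM scaled within each line by TMM, which sets the library sizes so that most genes do not shift between libraries. TMM factors were higher in controls than in treated libraries, at 1.056 to 1.065 against 0.898 to 1.001 in HT55 and 1.114 to 1.137 against 0.846 to 0.948 in SW948. Each test was therefore also run on plain library totals, which moved the median log2 fold change of all genes tested to -0.18 in HT55 and -0.35 in SW948. A gene was called higher or lower at a Benjamini-Hochberg adjusted p under 0.05 in edgeR's quasi-likelihood test, adjusted over all genes tested in that comparison.

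Controls were compared first, to give the starting level of each gene in the lines. In the DMSO groups 43 of the 56 genes were lower in SW948 than in HT55 and 6 were higher, where 37.7% of all genes tested were called lower and 38.2% higher. On plain totals the numbers were 38 lower and 8 higher, against 29.6% and 46.3% of all genes. The median log2 difference of the 56 genes was -0.77 with TMM, beside 0.0078 over all genes. MKI67, which encodes the proliferation antigen Ki-67, showed the widest gap, at -2.64 on the log2 scale (SE 0.11, adjusted p = 2.14e-14). CDC25B, a phosphatase that activates CDK1, lay the other way at 1.21 (SE 0.062, adjusted p = 8.16e-13). Per kilobase of exon, the most abundant of the genes in HT55 controls was TPX2, a spindle assembly factor, at 143 ± 4.70 RPKM (SD, n = 4), followed by TOP2A, the DNA topoisomerase of chromosome segregation, at 119.6 ± 0.956 RPKM. In SW948 controls TOP2A stood at 72.1 ± 6.21 and TPX2 at 66.4 ± 1.42 RPKM, which lay within their spreads of each other. The lowest per kilobase was CENPE at 2.77 ± 0.0735 RPKM in HT55 controls and CDC25C at 3.86 ± 0.339 RPKM in SW948 controls.

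Itraconazole lowered most of these transcripts in HT55. Of the 56 genes 35 fell and 1, CDC25B, rose with TMM, where 26.5% of all genes tested fell and 27.5% rose. On plain totals 43 fell and none rose, against 38.8% and 18.8% of all genes, and all 35 genes lower with TMM were lower there too. The median log2 fold change of the 56 genes was -0.32 with TMM and -0.49 on plain totals, which is -0.31 relative to the median of all genes under both scalings. The falls were mostly shallow, with 14 genes down by 0.5 or more on the log2 scale. CDC25B was also the only rise at an unadjusted p under 0.05 with edgeR and TMM and the only rise with DESeq2, and no gene rose at an unadjusted p under 0.05 on plain totals. Without treated replicate 3, 37 genes fell and 5 rose, namely CDC25B, ANLN, AURKA, KIF20A and CKAP5.

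In SW948 the same genes split. With TMM 30 of the 56 rose and 14 fell, where 38.9% of all genes tested rose and 41.3% fell. On plain totals 19 rose and 23 fell, against 25.2% and 54.6% of all genes. The 19 that rose and the 14 that fell with TMM kept their calls under both scalings, so that 11 rises, among them those of CDK1, CCNB1, PLK1, TTK and TOP2A, were called with TMM only. The median log2 fold change was 0.23 with TMM and -0.095 on plain totals, which is 0.26 relative to the median of all genes under both. Changes ran from -2.65 for ASPM to 1.67 for PTTG1 with TMM, a wider range than the -0.90 to 0.24 seen in HT55.

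**Figure D1:**
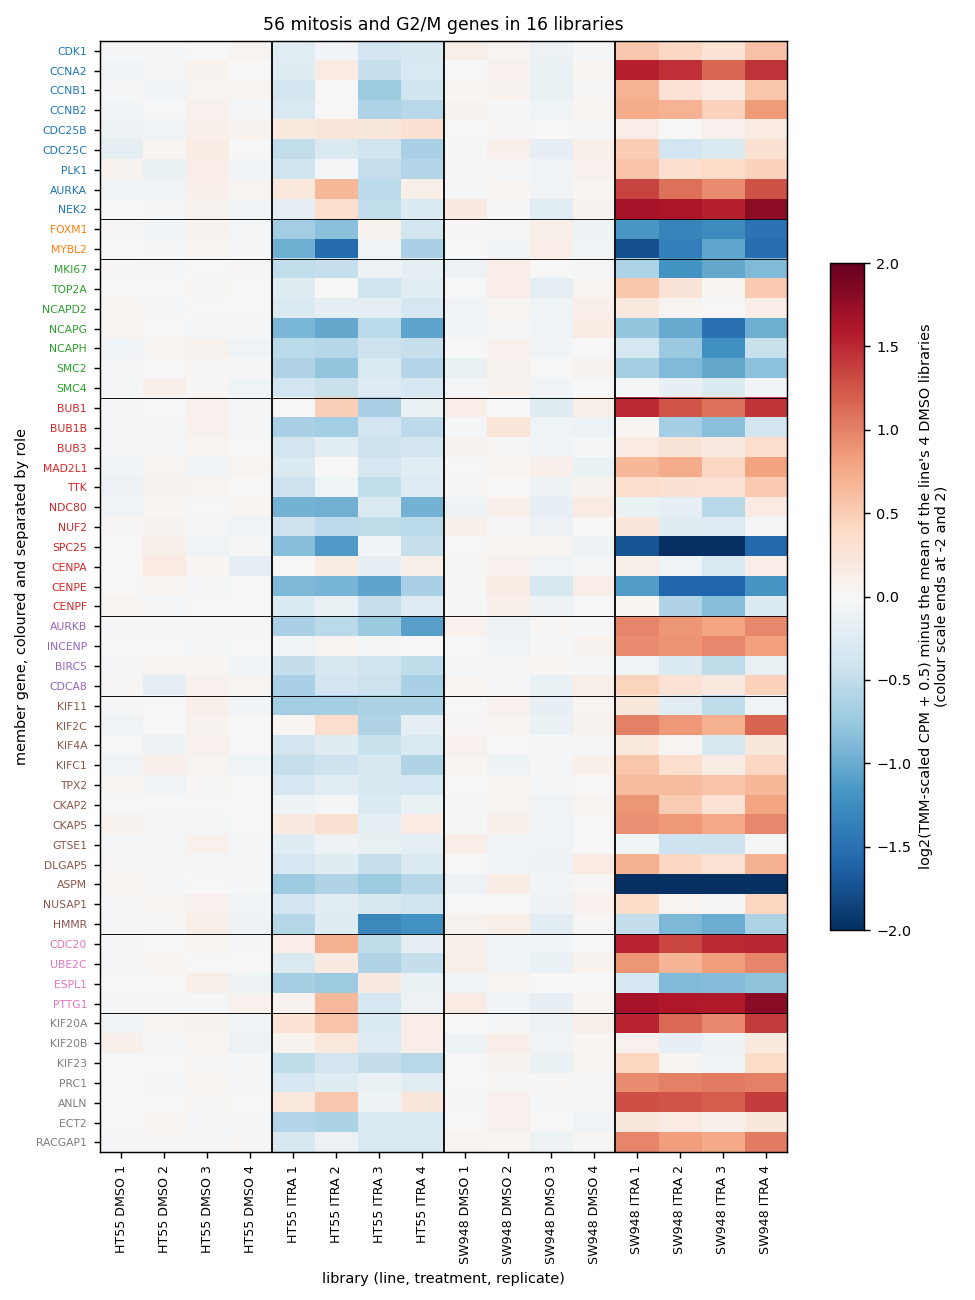
Change of each of the 56 genes (rows, grouped and coloured by role) in each of the 16 libraries (columns), as log2(TMM-scaled CPM + 0.5) minus the mean of the 4 DMSO libraries of the same line, on a colour scale that ends at -2 and 2. Most rows are pale blue in HT55 with itraconazole, while SW948 with itraconazole holds both deep red rows such as PTTG1, NEK2 and CDC20 and deep blue rows such as ASPM and SPC25.

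Whether the response differed between the lines was tested by the interaction of line and treatment over all 16 libraries. The log2 ratio of the responses was higher in SW948 for 38 of the 56 genes and lower for 5, ASPM, SPC25, FOXM1, MKI67 and CENPE, where 24.8% of all genes tested were called higher and 29.1% lower. On plain totals 31 were higher and 8 lower, against 17.3% and 37.2% of all genes. Without HT55 itraconazole replicate 2 the number lower became 8 with TMM as well. The call for CENPE was lost in 11 of the 16 fits that left out 1 library each.

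Set side by side, 15 of the 56 genes fell in HT55 and rose in SW948 with TMM, where 2.6% of the genes tested in both lines did. They were AURKB, CDCA8, BUB3, TTK, CDK1, CCNB1, CCNB2, PLK1, PRC1, RACGAP1, ECT2, KIFC1, TPX2, DLGAP5 and NUSAP1. On plain totals 10 genes did so, against 2.85%, and AURKB, CCNB2, PRC1, RACGAP1 and TPX2 were in both sets. Some of these calls hung on single libraries. With TMM, the HT55 fall was kept in 3 of 8 fits leaving out 1 library for CCNB2 and in 4 of 8 for TTK. The SW948 rise was kept in 2 of 8 for NUSAP1 and in 7 of 8 for ECT2. Calls lost for CDK1, CCNB1 and PLK1 are given below. Another 12 genes fell in both lines with TMM, against 19.5% of all genes, and 19 on plain totals, against 31%. With edgeR run per line none rose in both lines, where 19.9% of all genes did. None rose in HT55 and fell in SW948, where 4.05% did. At an unadjusted p under 0.05 both counts were also 0, and with DESeq2 they were 1, CDC25B, and 0. In 1 edgeR fit on all 16 libraries CDC25B passed as a rise in SW948 too (0.13, adjusted p = 0.0483).

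**Figure D2:**
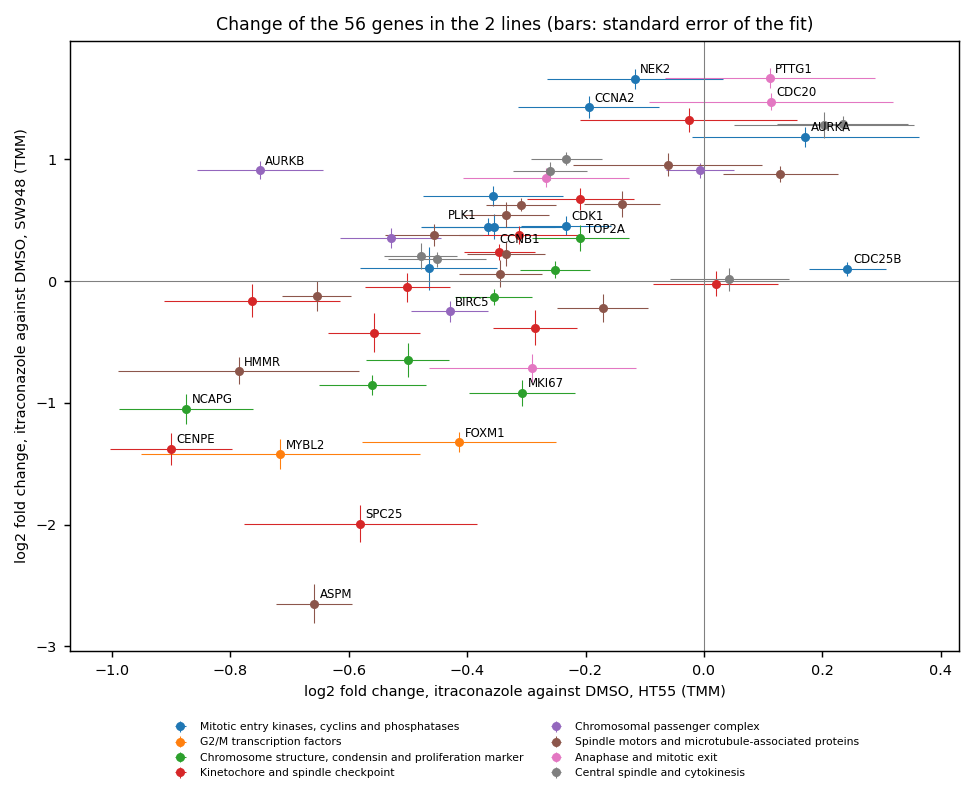
Log2 fold change with itraconazole in HT55 (horizontal axis) and SW948 (vertical axis) for the 56 genes, with TMM; points are genes coloured by role, bars are standard errors of the fit, and the 20 genes described one by one are labelled. Most points lie left of 0 in HT55 and spread in SW948 from ASPM at -2.65 to PTTG1 at 1.67.

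Counts by role follow with TMM and then on plain totals. Over all genes tested, 26.5% fell and 27.5% rose in HT55 and 41.3% fell and 38.9% rose in SW948 with TMM, and 38.8% fell and 18.8% rose in HT55 and 54.6% fell and 25.2% rose in SW948 on plain totals. Among the 9 kinases, cyclins and phosphatases of mitotic entry, 5 fell and 1 rose in HT55 with TMM, and 7 rose and none fell in SW948. On plain totals 6 fell and none rose in HT55, while SW948 gave 4 rises and 1 fall. CDK1, the kinase that drives entry, was measured in HT55 at 168, 169.9, 173 and 179 CPM in controls and at 149.9, 167, 132 and 139 CPM with itraconazole. All treated libraries lay below all controls, and the log2 fold change was -0.23 (SE 0.076, adjusted p = 0.0239). In SW948 CDK1 stood at 91.03, 87.9, 77.3 and 81.7 CPM in controls and at 123, 113, 102 and 127 CPM with itraconazole. Here every treated library lay above every control, with a log2 fold change of 0.46 (SE 0.08, adjusted p = 1.13e-04) with TMM and 0.13 (adjusted p = 0.212) on plain totals. The HT55 fall was lost in 5 of the 8 fits that left out 1 library each and with an offset for GC content and length (-0.075, adjusted p = 0.374).

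CCNA2 and CCNB1 encode the main A-type and B-type mitotic cyclins. CCNA2 in HT55 was at 65.3, 67.1, 71.7 and 68.1 CPM in controls and 57.3, 76.4, 49.1 and 55.2 CPM when treated. The groups overlapped because treated replicate 2 was above every control, and the log2 fold change was -0.19 (SE 0.12, adjusted p = 0.187) with TMM. It passed as a fall on plain totals (-0.37, adjusted p = 0.0104) and, with TMM, without replicate 2 (-0.34, adjusted p = 0.00423). In SW948 CCNA2 went from 30.6, 32.4, 27.9 and 31.3 CPM to 91.05, 85.2, 68.2 and 84.3 CPM. All 4 treated libraries lay far above the highest control, and the rise of 1.43 (SE 0.091, adjusted p = 5.52e-09) held on plain totals at 1.10. CCNB1 in HT55 was at 113, 111, 120.3 and 121 CPM in controls and 90.2, 115, 70.97 and 87.8 CPM when treated, with replicate 2 again inside the control range and a log2 fold change of -0.36 (SE 0.12, adjusted p = 0.029). That call was lost in 6 of 8 fits leaving out 1 library and with the GC and length offset (-0.22, adjusted p = 0.124). In SW948 CCNB1 was at 120.3, 123, 107 and 119.9 CPM in controls and 191, 143, 132 and 174 CPM when treated. Treated libraries lay above controls, with 0.45 (SE 0.10, adjusted p = 9.99e-04) with TMM and 0.13 (adjusted p = 0.35) on plain totals.

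PLK1, the polo-like kinase of centrosome maturation and mitotic entry, was at 108, 92.3, 111 and 97.9 CPM in HT55 controls and 76.9, 99.2, 73.9 and 67.7 CPM when treated. Replicate 2 overlapped the controls, and the log2 fold change was -0.37 (SE 0.11, adjusted p = 0.019), lost in 3 of 8 fits leaving out 1 library. In SW948 PLK1 rose from 56.7, 54.3, 53.5 and 59.3 CPM to 82.9, 71.1, 74.1 and 77.1 CPM, with no overlap and a log2 fold change of 0.45 (SE 0.07, adjusted p = 3.85e-05). On plain totals this was 0.12 (adjusted p = 0.198).

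AURKA, the spindle pole kinase, spread widely in treated HT55, at 141, 194, 84.4 and 132 CPM against 116, 116, 130.3 and 126 CPM in controls. Replicate 2 was far above and replicate 3 far below the controls, and the change of 0.17 (SE 0.19, adjusted p = 0.47) did not pass. In SW948 AURKA went from 67.3, 71.04, 65.7 and 70.8 CPM to 177, 148, 133 and 166 CPM. Every treated library was above every control, at 1.18 (SE 0.084, adjusted p = 1.50e-08). NEK2, the kinase that parts the centrosomes, was located at chr1:211831999-211848972 (hg19). It was at 99.4, 97.8, 104 and 95.02 CPM in HT55 controls and 86.96, 126, 70.2 and 82.03 CPM when treated, which overlapped (-0.12, adjusted p = 0.526), and it passed as a fall without treated replicate 2 (-0.31, adjusted p = 0.00816). In SW948 it rose from 53.9, 46.6, 41.2 and 49.9 CPM to 150.2, 149, 141 and 166 CPM, the treated libraries all lying far above the controls. Its log2 fold change was 1.66 (SE 0.085, adjusted p = 6.99e-10), and its interaction of 1.81 (SE 0.18, adjusted p = 1.63e-07) was the most positive of the 56 genes.

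CDC25B in HT55 was at 86.4, 87.9, 98.8 and 97.4 CPM in controls and 105, 109.9, 108 and 115 CPM when treated. Treated libraries lay just above controls, with a log2 fold change of 0.24 (SE 0.066, adjusted p = 0.00986) that was 0.077 (adjusted p = 0.345) on plain totals. In SW948 CDC25B was at 235, 235, 231 and 229.6 CPM in controls and 256, 235, 247 and 260.3 CPM when treated, which overlapped, and its direction flipped from 0.10 with TMM to -0.23 (adjusted p = 0.00506) on plain totals. CDC25C, its partner at mitotic entry, fell in HT55 at -0.47 (SE 0.12, adjusted p = 0.00635) and was at 0.10 (adjusted p = 0.595) in SW948.

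The transcription factors FOXM1 and MYBL2, which switch on G2/M genes, went down in SW948 while many G2/M transcripts rose. FOXM1 in SW948 went from 73.1, 69.6, 77.7 and 67.02 CPM in controls to 31.6, 28.1, 29.3 and 25.5 CPM when treated. The groups lay far apart, with a log2 fold change of -1.32 (SE 0.082, adjusted p = 4.18e-09). MYBL2 (B-Myb) went from 94.7, 92.2, 105 and 91.3 CPM to 27.9, 36.7, 46.5 and 32.8 CPM, again without overlap, at -1.42 (SE 0.12, adjusted p = 8.28e-08).

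In HT55 both factors differed widely between treated libraries. FOXM1 was at 206, 196, 213 and 198 CPM in controls and 126, 113, 214 and 157 CPM when treated. Replicate 3 was as high as the highest control and the other 3 were below all controls, so that the log2 fold change was -0.41 (SE 0.16, adjusted p = 0.0528) with TMM and became -0.61 (adjusted p = 6.41e-05) without replicate 3. On plain totals it passed at -0.57 (adjusted p = 0.0252). It also passed with the DESeq2 Wald test (adjusted p = 0.0375), with no filter on low counts (adjusted p = 0.00844) and in 1 fit on all 16 libraries (adjusted p = 0.013). MYBL2 was at 251, 245, 258 and 246 CPM in controls and 126, 85.2, 238 and 158 CPM when treated, where replicate 3 was again nearest to the controls. Its log2 fold change was -0.72 (SE 0.24, adjusted p = 0.0252), with a call lost in 6 of 8 fits leaving out 1 library, and became -1.01 without replicate 3. The interaction was -0.88 (SE 0.20, adjusted p = 8.26e-04) for FOXM1 and -0.68 (SE 0.29, adjusted p = 0.0527) for MYBL2, the second passing on plain totals (-0.90, adjusted p = 0.0182).

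Of the 7 genes of chromosome structure, 6 fell in HT55 and none rose with TMM, where 26.5% of all genes fell. In SW948 4 fell and 1, TOP2A, rose with TMM, where 41.3% of all genes fell. On plain totals 7 fell in HT55 and 6 in SW948, and none rose. MKI67 in HT55 was at 409.6, 391, 399 and 412 CPM in controls and 286, 292, 375 and 350.1 CPM when treated. Treated replicates 3 and 4 were nearest to the controls, and the log2 fold change was -0.31 (SE 0.09, adjusted p = 0.0143). In SW948 MKI67 went from 64.8, 76.4, 70.03 and 69.04 CPM to 45.6, 30.4, 34.05 and 37.5 CPM, all treated libraries lying below all controls. The fall was -0.92 (SE 0.11, adjusted p = 2.01e-06), and the interaction was -0.58 (SE 0.15, adjusted p = 0.00232).

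NCAPG, a regulatory subunit of condensin I, fell in both lines. It was at 41.7, 40.8, 39.5 and 40.05 CPM in HT55 controls and 21.3, 19.7, 27.8 and 19.3 CPM when treated, and the difference of -0.87 (SE 0.11, adjusted p = 1.52e-04) was well beyond the spread. In SW948 it went from 44.4, 45.6, 43.6 and 51.4 CPM to 26.9, 22.7, 16.1 and 23.2 CPM, with -1.05 (SE 0.12, adjusted p = 2.22e-06), and its interaction was -0.15 (SE 0.18, adjusted p = 0.506). The condensin genes NCAPH and SMC2 also fell in both lines, at -0.50 and -0.56 in HT55 and at -0.65 and -0.85 in SW948. The other condensin genes of the 56, NCAPD2 and SMC4, fell in HT55 at -0.25 and -0.35 and did not pass in SW948 with TMM, at 0.094 (adjusted p = 0.217) and -0.13 (adjusted p = 0.0891), where both were called lower on plain totals. TOP2A was at 738, 733, 746 and 735 CPM in HT55 controls and 623, 738, 558 and 636 CPM when treated. Replicate 2 reached the controls, and the change of -0.21 (SE 0.082, adjusted p = 0.051) just missed the threshold with TMM and passed on plain totals (-0.38, adjusted p = 6.04e-04). With TMM it passed without treated replicate 2 (-0.28, adjusted p = 0.00488). It also passed with no filter on low counts (adjusted p = 0.0453) and with at least 10 counts in every library (adjusted p = 0.0374). In SW948 TOP2A was at 476, 528, 425 and 497 CPM in controls and 708, 576, 491 and 688 CPM when treated. The groups overlapped through treated replicate 3, and the log2 fold change was 0.35 (SE 0.11, adjusted p = 0.00737) with TMM and 0.034 (adjusted p = 0.807) on plain totals.

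Of the 11 kinetochore and spindle checkpoint genes, 8 fell in HT55 and none rose with TMM, and BUB1, MAD2L1 and CENPA did not pass. In SW948 4 rose and 4 fell with TMM, shares near those of all genes (38.9% and 41.3%). On plain totals 9 fell and none rose in HT55, while SW948 gave 2 rises and 7 falls. CENPE, the kinetochore motor that carries chromosomes to the spindle equator, had the deepest fall of the 56 genes in HT55. It went from 26.6, 27.6, 25.9 and 26.5 CPM to 14.1, 13.8, 12.6 and 16.9 CPM, with every treated library far below the controls and a log2 fold change of -0.90 (SE 0.10, adjusted p = 6.86e-05). In SW948 it went from 44.9, 49.3, 35.5 and 48.6 CPM to 20.2, 14.4, 14.4 and 19.2 CPM, also without overlap, at -1.38 (SE 0.13, adjusted p = 3.29e-07). The outer kinetochore proteins NDC80, NUF2 and SPC25 form part of 1 complex, but their transcripts moved by different amounts. NDC80 and NUF2 fell in HT55 by 0.76 and 0.50 on the log2 scale and were at -0.16 and -0.051 in SW948 with TMM, which did not pass (adjusted p = 0.291 and 0.706) and passed as falls on plain totals.

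SPC25 was at 21.3, 23.3, 20.4 and 21.1 CPM in HT55 controls and 11.7, 9.58, 20.6 and 15.4 CPM when treated. Replicate 3 again lay within the control range, and the change of -0.58 (SE 0.20, adjusted p = 0.0284) was lost in 6 of 8 fits leaving out 1 library and with the GC and length offset (-0.40, adjusted p = 0.126). In SW948 SPC25 dropped from 15.4, 15.9, 15.9 and 14.3 CPM to 4.30, 3.04, 3.01 and 4.85 CPM, with every treated library far below every control. The log2 fold change was -1.99 (SE 0.15, adjusted p = 2.84e-08) and the interaction -1.39 (SE 0.27, adjusted p = 2.48e-04).

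The checkpoint genes gave both directions in SW948. BUB1, a checkpoint kinase, rose from 90.4, 82.5, 70.1 and 90.3 CPM to 233, 199.6, 178 and 225 CPM, far above the controls, at 1.33 (SE 0.10, adjusted p = 2.19e-08). BUB1B, which encodes the related checkpoint protein BubR1, was at 30.2, 37.1, 29.2 and 28.7 CPM in controls and 31.9, 19.2, 17.2 and 24.1 CPM when treated. Treated replicate 1 overlapped the controls, and the fall of -0.42 (SE 0.16, adjusted p = 0.0243) was lost in 3 of 8 fits leaving out 1 library. MAD2L1 and TTK, the checkpoint protein Mad2 and the checkpoint kinase Mps1, rose with TMM by 0.67 and 0.38, the first also on plain totals. CENPA, the centromeric histone, passed in neither line with TMM, at 0.02 and -0.02, and was called lower in SW948 on plain totals (-0.34, adjusted p = 0.0161).

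The 4 genes of the chromosomal passenger complex, which corrects faulty attachments and acts in cytokinesis, gave 3 falls in HT55 and 3 rises and 1 fall in SW948 with TMM. On plain totals HT55 gave 4 falls, and SW948 gave 2 rises and 1 fall. INCENP, the scaffold, was at -0.0068 (adjusted p = 0.928) in HT55 with TMM and at -0.17 (adjusted p = 0.0245) on plain totals. AURKB, the kinase, was at 41.5, 41.4, 43.03 and 43.03 CPM in HT55 controls and 26.9, 28.9, 24.9 and 19.7 CPM when treated. All treated libraries were below all controls, at -0.75 (SE 0.11, adjusted p = 2.58e-04). In SW948 it went the other way, from 30.7, 26.7, 29.3 and 28.4 CPM to 56.7, 53.6, 50.03 and 56.2 CPM, with every treated library above the controls. Its rise of 0.91 (SE 0.076, adjusted p = 7.10e-08) held on plain totals at 0.59, and the interaction was 1.69 (SE 0.13, adjusted p = 9.48e-09).

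BIRC5 (survivin), another passenger protein, fell in both lines. It was at 82.95, 88.5, 87.4 and 81.6 CPM in HT55 controls and 61.02, 67.97, 64.2 and 59.6 CPM when treated, without overlap, at -0.43 (SE 0.065, adjusted p = 3.74e-04). In SW948 it was at 48.1, 49.9, 50.5 and 48.00 CPM in controls and 46.3, 40.02, 34.3 and 44.2 CPM when treated, lower in all 4 libraries by a small margin. The log2 fold change there was -0.25 (SE 0.088, adjusted p = 0.0184), and it was lost without treated replicate 2 or 3. INCENP in SW948 rose from 60.8, 57.5, 59.5 and 63.2 CPM to 116, 112, 118 and 107 CPM, at 0.91 (SE 0.062, adjusted p = 1.02e-08).

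**Figure D3:**
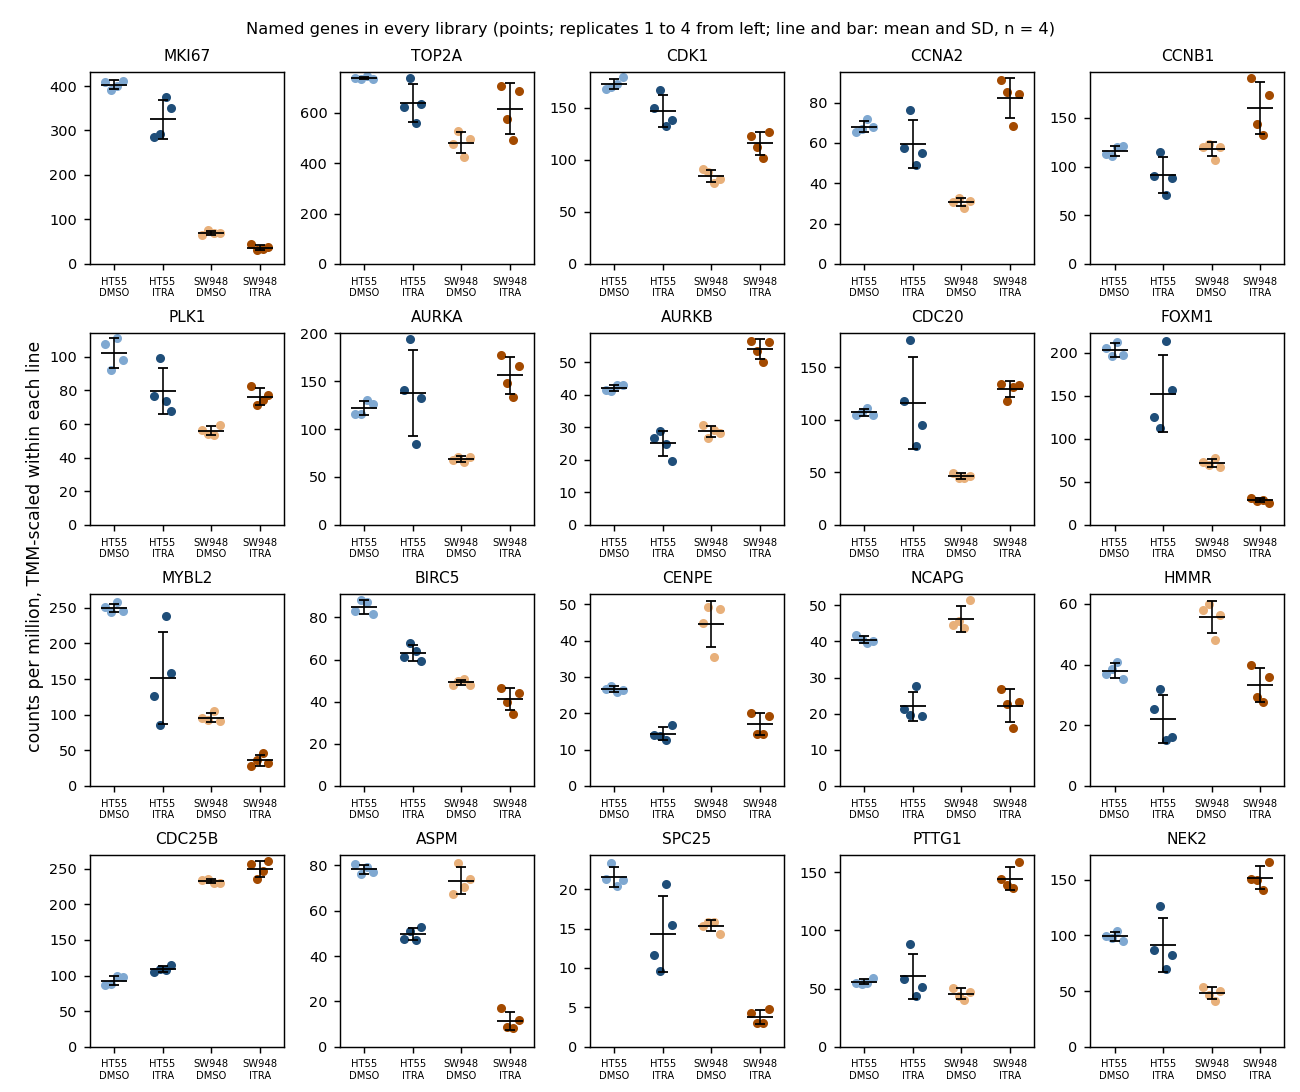
TMM-scaled CPM (vertical axes, from 0) of the 20 genes named by rule in every library; points are libraries with replicates 1 to 4 from left to right in each group, and the line and bar give the mean and SD (n = 4). SW948 points separate for PTTG1, NEK2, CDC20 and CCNA2 upward and for ASPM, SPC25, MYBL2 and FOXM1 downward, while treated HT55 points scatter widely for AURKA, CDC20, FOXM1 and MYBL2.

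Of 12 spindle motors and microtubule-associated proteins, 8 fell in HT55 and none rose with TMM, and 7 rose and 2 fell in SW948. On plain totals 10 fell and none rose in HT55, while SW948 gave 4 rises and 4 falls, so that the larger number of rises there was seen with TMM only. ASPM, the spindle pole protein known from inherited microcephaly, lies at chr1:197053251-197115824 (hg19). In HT55 it went from 80.5, 76.2, 79.1 and 77.1 CPM to 47.3, 51.2, 47.3 and 52.6 CPM, all treated libraries lying below the controls, at -0.66 (SE 0.064, adjusted p = 2.67e-05). In SW948 it dropped from 67.1, 80.9, 70.5 and 73.98 CPM to 17.1, 8.72, 8.25 and 11.7 CPM. This was the deepest fall of the 56 genes, at -2.65 (SE 0.16, adjusted p = 3.81e-09), and the interaction was -1.96 (SE 0.19, adjusted p = 1.21e-07).

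HMMR, a microtubule-binding protein of the spindle pole, fell in both lines. It was at 37.02, 38.7, 40.97 and 35.1 CPM in HT55 controls and 25.3, 31.8, 15.2 and 16.02 CPM when treated, with replicates 3 and 4 far lower than the others. The log2 fold change was -0.79 (SE 0.20, adjusted p = 0.00787). In SW948 it went from 58.1, 60.03, 48.01 and 56.5 CPM to 39.7, 29.5, 27.8 and 35.9 CPM, without overlap, at -0.74 (SE 0.11, adjusted p = 2.78e-05). The kinesin KIF11 (Eg5), which pushes the spindle poles apart, fell in HT55 by 0.65 on the log2 scale (adjusted p = 1.62e-05) and was at -0.12 (adjusted p = 0.366) in SW948 with TMM and -0.44 (adjusted p = 0.0122) on plain totals. KIF2C, the microtubule depolymerase, and CKAP5, a microtubule polymerase, rose in SW948 by 0.96 and 0.88 and did not pass in HT55, at -0.061 and 0.13.

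None of the 4 genes of anaphase and mitotic exit passed in HT55 with TMM, while in SW948 3 rose and 1 fell. On plain totals 1, UBE2C, fell in HT55 and the SW948 numbers were the same. CDC20 (hg19 chr1:43824652-43828874) was at 105, 107, 111 and 105 CPM in HT55 controls and 118, 176, 75.1 and 94.9 CPM when treated. The treated libraries straddled the controls, with replicate 2 highest and replicate 3 lowest, at 0.11 (SE 0.21, adjusted p = 0.661). In SW948 it rose from 49.9, 44.6, 44.9 and 46.9 CPM to 134, 118, 132 and 133 CPM, far above every control, at 1.47 (SE 0.069, adjusted p = 3.02e-10).

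PTTG1 (hg19 chr5:159848862-159855746) encodes securin, the inhibitor of the protease separase, which cuts the cohesin rings at anaphase. It was at 55.1, 54.4, 54.9 and 59.2 CPM in HT55 controls and 58.6, 88.2, 43.5 and 51.7 CPM when treated, which overlapped (0.11, adjusted p = 0.616). In SW948 it rose from 50.9, 43.8, 40.2 and 47.3 CPM to 144, 139, 137 and 159 CPM, the largest rise of the 56 genes at 1.67 (SE 0.081, adjusted p = 4.67e-10). ESPL1, which encodes separase itself, went the other way in SW948, from 36.9, 39.99, 38.99 and 38.4 CPM to 30.1, 20.6, 20.8 and 21.9 CPM. All treated libraries were below the controls, at -0.71 (SE 0.11, adjusted p = 4.21e-05). UBE2C, the ubiquitin-conjugating enzyme of the APC/C, rose in SW948 by 0.85 (adjusted p = 1.92e-07) and was at -0.27 (adjusted p = 0.131) in HT55 with TMM. PTTG1 has near-identical copies elsewhere in the genome and reads with several alignments were not counted, so its level is uncertain, as is that of KIF4A, a motor with the copy KIF4B. Other genes of the 56 also have annotated copies, among them CDC20, NEK2, AURKA, AURKB, CCNB2, UBE2C and RACGAP1. The copies of CDC20 and NEK2 held 167 and 107 counts over all 16 libraries. How many reads these genes lost to their copies was not tested.

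Of the 7 genes of the central spindle and cytokinesis, 5 rose in SW948 and none fell with TMM, where 38.9% of all genes rose. On plain totals 4 rose and 1, KIF20B, fell. In HT55 4 of 7 fell and none rose under either scaling. ANLN, the actin-binding scaffold of the cleavage furrow, rose in SW948 from 114, 124, 115 and 115 CPM to 286, 282, 272 and 309 CPM. That was a separation far beyond the spread, at 1.29 (SE 0.063, adjusted p = 4.53e-10), against 0.23 (adjusted p = 0.0957) in HT55. KIF20A, the kinesin that brings the passenger complex to the central spindle, rose in SW948 by 1.28. PRC1, which bundles the central spindle, and RACGAP1, part of centralspindlin, rose in SW948 by 1.01 and 0.91 and fell in HT55 by 0.23 and 0.26 on the log2 scale. KIF20B was at 0.043 in HT55 and 0.014 in SW948 with TMM and passed in neither, and on plain totals it was at -0.31 (adjusted p = 0.0168) in SW948.

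**Figure D4:**
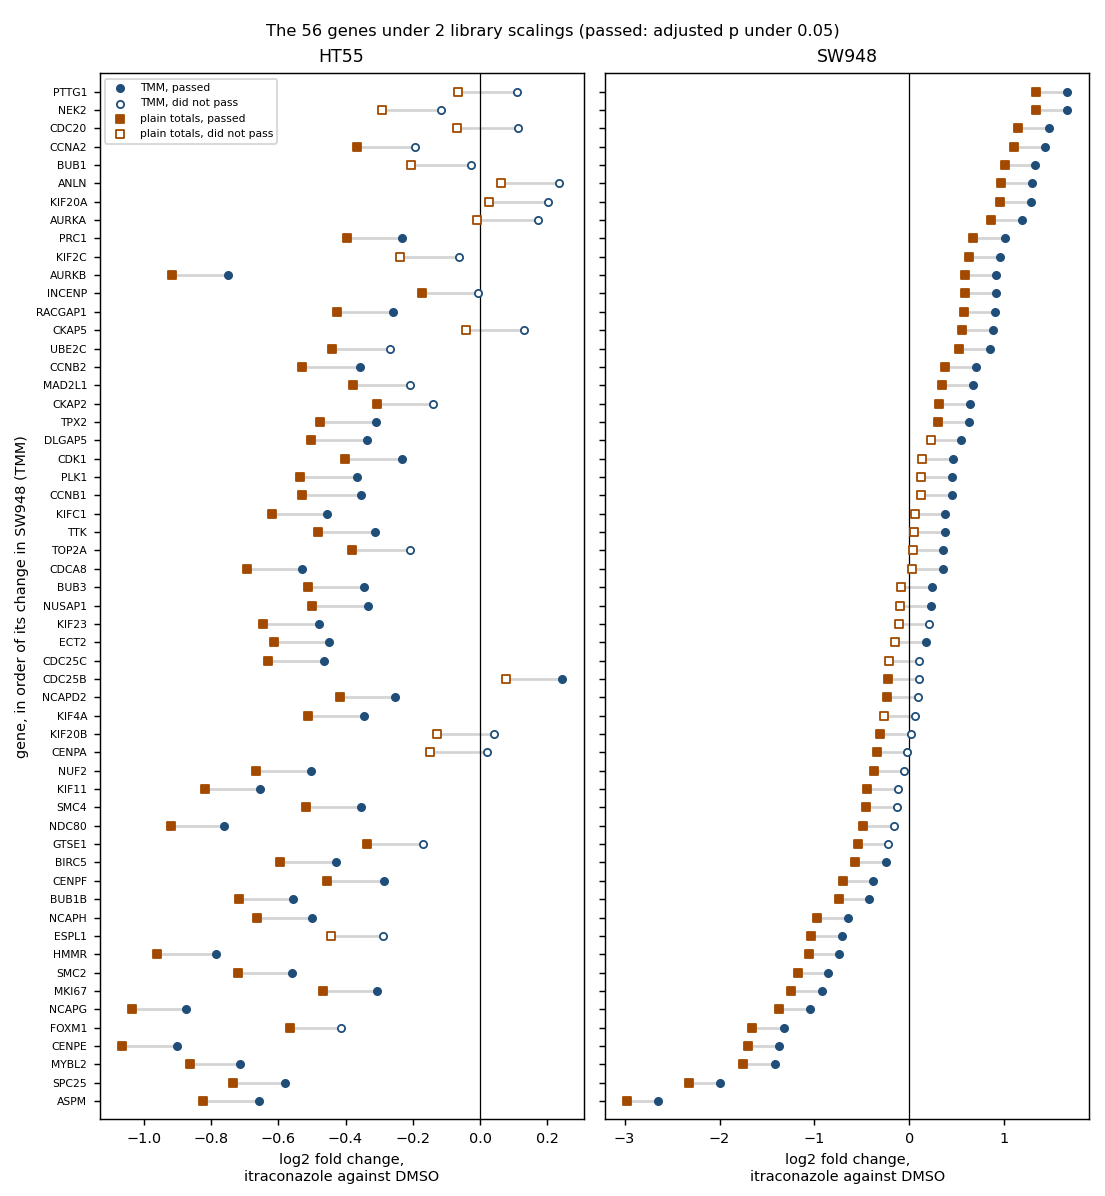
Log2 fold change of each of the 56 genes (rows, in order of the SW948 change) in HT55 (left) and SW948 (right) with TMM (circles) and on plain totals (squares); filled marks passed an adjusted p of 0.05. Plain totals move every gene to the left, and in SW948 11 genes are filled to the right of 0 with TMM only, while the 19 from PTTG1 down to TPX2 and the 14 from BIRC5 down to ASPM keep their calls.

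Promoter sequences of the 3 genes with the largest rises and the 3 with the deepest falls in SW948 are shown. Genes of this class are known to share short promoter elements. The sequences are the 200 bases before the start site listed by RefSeq on GRCh38.p14, read 5′ to 3′ on the strand of the gene. Capitals mark the cell cycle genes homology region (CHR) core TTTGAA or its reverse complement TTCAAA, and the CCAAT box or its reverse complement ATTGG, where neighbouring or overlapping boxes join into longer capitals. The windows are chr5:160421655-160421854 on the plus strand for PTTG1, chr1:211675622-211675821 on the minus strand for NEK2, chr1:43358781-43358980 on the plus strand for CDC20, chr1:197146670-197146869 on the minus strand for ASPM, chr2:168890431-168890630 on the minus strand for SPC25 and chr20:43666914-43667113 on the plus strand for MYBL2. The first 3 rose and the last 3 fell.
PTTG1: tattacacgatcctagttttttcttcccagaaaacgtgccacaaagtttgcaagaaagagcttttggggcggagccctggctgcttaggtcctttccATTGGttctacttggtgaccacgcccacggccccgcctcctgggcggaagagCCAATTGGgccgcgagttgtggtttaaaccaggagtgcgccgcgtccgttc
NEK2: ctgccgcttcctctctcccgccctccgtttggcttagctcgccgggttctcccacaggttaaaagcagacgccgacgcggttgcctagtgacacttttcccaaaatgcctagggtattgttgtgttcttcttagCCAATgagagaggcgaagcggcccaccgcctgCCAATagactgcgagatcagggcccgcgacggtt
CDC20: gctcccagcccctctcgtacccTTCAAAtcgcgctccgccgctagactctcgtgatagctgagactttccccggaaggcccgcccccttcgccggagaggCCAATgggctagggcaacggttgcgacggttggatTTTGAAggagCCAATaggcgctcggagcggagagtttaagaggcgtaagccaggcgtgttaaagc
ASPM: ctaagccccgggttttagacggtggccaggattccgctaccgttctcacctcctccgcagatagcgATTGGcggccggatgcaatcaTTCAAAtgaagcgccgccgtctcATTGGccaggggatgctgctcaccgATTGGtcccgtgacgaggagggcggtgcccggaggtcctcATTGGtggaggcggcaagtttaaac
SPC25: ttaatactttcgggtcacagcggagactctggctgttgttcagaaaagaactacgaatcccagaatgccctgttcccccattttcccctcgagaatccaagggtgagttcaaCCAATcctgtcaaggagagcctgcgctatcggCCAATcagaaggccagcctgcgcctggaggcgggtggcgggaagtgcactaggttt
MYBL2: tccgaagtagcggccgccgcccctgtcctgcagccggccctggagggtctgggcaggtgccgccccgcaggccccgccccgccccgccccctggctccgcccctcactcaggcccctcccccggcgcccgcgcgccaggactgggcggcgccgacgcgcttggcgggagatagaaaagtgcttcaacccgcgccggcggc

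CDC20 held 2 CHR cores and 2 CCAAT boxes, and ASPM, which fell most, held 1 CHR core and 4 CCAAT boxes. PTTG1 had 3 CCAAT boxes, NEK2 and SPC25 had 2 each, and MYBL2 had neither element in these letters. These counts cover only the 200 bases shown. RefSeq windows of 250 bases before to 50 after the start site were found for 48 of the 56 genes, and the first listed window was used for each. The CHR core on either strand was in 34 of the 48 windows (70.8%), against 15.4% of the first windows of all 27305 genes listed. SPC25 was among the 34, with CHR cores that lay before the 200 bases shown or across their end. The CCAAT box on either strand was in 35 of the 48 (72.9%), against 35.7% of all, and both were in 27 of the 48 (56.2%), against 6.08%. The ends of the motifs can overlap by 1 base. Among genes with a window, the CHR core was in 15 of the 24 that rose in SW948 with TMM, in 9 of the 12 that fell and in 10 of the 12 that did not pass. In HT55 it was in 24 of the 30 that fell and in 10 of the 17 that did not pass. The CCAAT box was in 21 of the 24 that rose, 7 of the 12 that fell and 7 of the 12 that did not pass in SW948, and in 21 of the 30 that fell and 14 of the 17 that did not pass in HT55. These shares were not tested against each other.

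Ratios of 2 genes within a library do not depend on library scaling, so 8 pairs of functional partners were compared in each line by a two-sided exact permutation test, 16 tests in all. The smallest p that 4 against 4 libraries allow is 0.0286, and 12 of the 16 tests reached it. Their Benjamini-Hochberg adjusted p was 0.0381, a value that depends on how many of the 16 tests reached the smallest p. Pairs of other genes were not tested, so the share of gene pairs in general that would reach 0.0286 is not known. In SW948 the log2 ratio of PTTG1 to ESPL1, securin to separase, was 0.46, 0.13, 0.046 and 0.30 in controls and 2.25, 2.75, 2.71 and 2.86 with itraconazole. All treated ratios were above all controls, and the mean difference was 2.41 (exact p = 0.0286, adjusted p = 0.0381). In HT55 the treated ratios, 0.35, 1.02, -0.91 and -0.36, lay on both sides of the controls, -0.39, -0.42, -0.52 and -0.19 (difference 0.40, exact p = 0.343).

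The late kinesin KIF20A gained on the early kinesin KIF11 in both lines. Its log2 ratio went from -1.29 ± 0.037 to -0.46 ± 0.39 in HT55 (SD, n = 4) and from -0.73 ± 0.079 to 0.68 ± 0.086 in SW948, with no overlap in either (exact p = 0.0286). The HT55 call was lost without any 1 of the 4 controls (exact p = 0.0571). BIRC5 lost against INCENP in both, by -0.42 in HT55 and -1.17 in SW948 on the log2 scale (exact p = 0.0286 in each). CCNB1 lost against CCNA2, by -0.16 in HT55 and -0.99 in SW948 (exact p = 0.0286 in each), and UBE2C lost against CDC20 by -0.34 and -0.62 (exact p = 0.0286 in each), the HT55 call again lost without any 1 control (exact p = 0.0571).

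The remaining pairs passed in 1 line each with a prior count of 0.5. AURKA gained on AURKB in HT55, from 1.53 ± 0.055 to 2.41 ± 0.47 (exact p = 0.0286, or 0.0571 without any 1 control). The difference in SW948 was 0.26 (exact p = 0.0571, adjusted p = 0.0703), and it reached an unadjusted exact p = 0.0286 with a prior count of 2 or without DMSO replicate 2. CDC25B gained on CDC25C in HT55, by 0.71 (exact p = 0.0286), while SW948 gave 0.06 (exact p = 0.8). CDC20 gained on MAD2L1, the checkpoint protein that restrains it, in SW948 by 0.81 (exact p = 0.0286), while HT55 gave 0.25 (exact p = 0.314). Differences between the lines were not tested for these ratios.

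**Figure D5:**
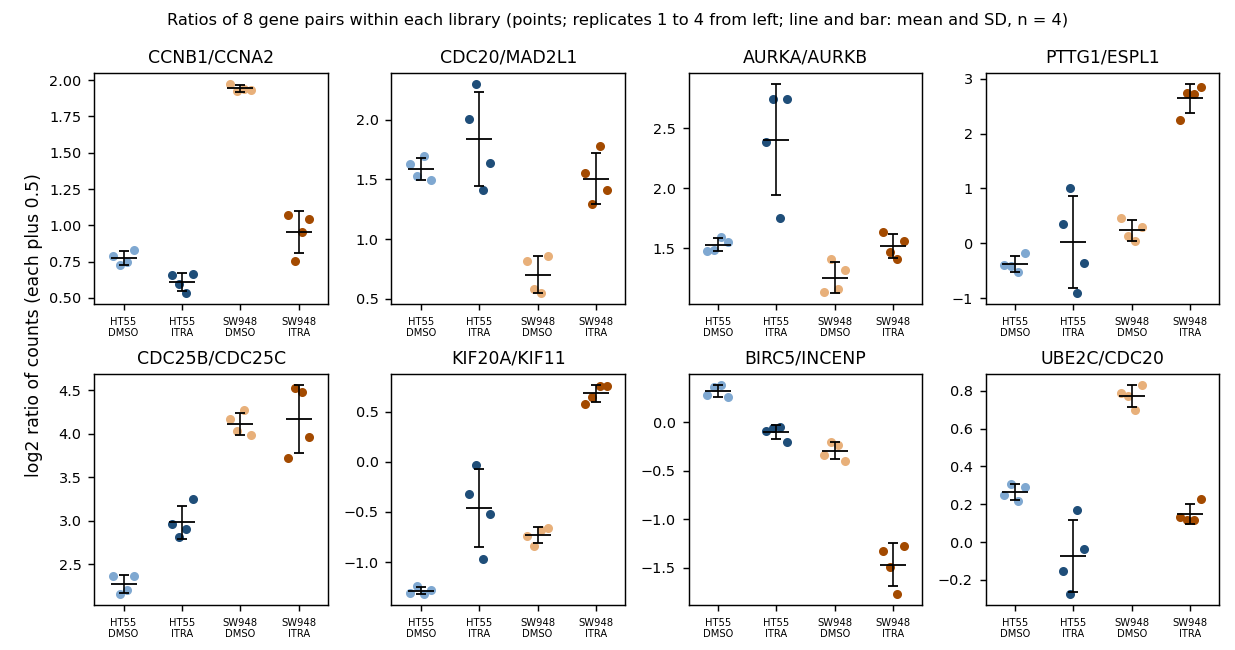
Log2 ratio of the counts of 2 genes in the same library (vertical axes, each count plus 0.5) for 8 pairs in the 4 groups; points are libraries with replicates 1 to 4 from left to right, and the line and bar give the mean and SD (n = 4). The PTTG1/ESPL1 panel shows SW948 with itraconazole between 2.25 and 2.86 and its controls between 0.046 and 0.46.

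Other genes of the same machinery were examined through 7 lists, in which 106 of 107 genes were matched and tested. In HT55 68 of the 106 fell and 7 rose, and in SW948 49 fell and 34 rose, with TMM. Over all genes 26.5% fell and 27.5% rose in HT55 and 41.3% fell and 38.9% rose in SW948, so that the SW948 counts lay near the shares of all genes. On plain totals the numbers were 85 and 3 in HT55 and 68 and 13 in SW948, against 38.8% and 18.8% and against 54.6% and 25.2% of all genes. Counts by list are given with TMM, followed by plain totals. Among 20 further mitotic motor, spindle and cytokinesis genes, 18 fell in HT55 and none rose, while 11 rose and 5 fell in SW948. On plain totals all 20 fell in HT55, and the balance in SW948 turned to 5 rises and 8 falls. KIF15, a kinesin that backs up KIF11, fell in both lines, at -1.11 and -1.39, and TACC3, a spindle stabiliser, was at -0.49 in HT55 and 0.74 in SW948, both passing.

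Of 31 further kinetochore and centromere genes, 24 fell and none rose in HT55, and 17 fell and 5 rose in SW948, against 29 and none and 24 and 3 on plain totals. CENPM was lowest in SW948 at -2.77 (SE 0.24, adjusted p = 1.31e-07), and MAD1L1, which anchors Mad2 at kinetochores, was highest at 0.96 (SE 0.12, adjusted p = 5.48e-06). Of 11 DREAM and MuvB genes, 4 fell and 1 rose in HT55, and 6 fell and 4 rose in SW948, against 6 and none and 7 and none on plain totals. RBL1 (p107), a pocket protein, was lowest in both lines, at -0.94 (SE 0.14, adjusted p = 3.51e-04) in HT55 and -2.75 (SE 0.13, adjusted p = 2.69e-10) in SW948.

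Of 12 other G2/M regulators, 7 fell and 1 rose in HT55, and 6 fell and 2 rose in SW948, against 11 and none and 10 and 2 on plain totals. MASTL, the kinase that restrains the phosphatase opposing CDK1, rose in SW948 by 1.22 (adjusted p = 5.55e-06), while of the related substrates through which it acts ENSA fell at -1.65 (adjusted p = 8.48e-09) and ARPP19 was at -0.048 (adjusted p = 0.43) with TMM and -0.38 (adjusted p = 6.49e-05) on plain totals. Of 17 APC/C genes, 9 fell and 2 rose in HT55, and 9 fell and 6 rose in SW948, from ANAPC5 at -1.27 to UBE2S at 0.64. On plain totals 11 fell and none rose in HT55, and 10 fell and 2 rose in SW948. Of 12 cohesin genes, 4 fell and 3 rose in HT55, and 4 fell and 6 rose in SW948, with the alternative subunits STAG1 at -1.72 and STAG2 at 0.91. On plain totals 5 fell and 3 rose in HT55, and the balance in SW948 turned to 6 falls and 1 rise. Of the 3 condensin II genes, 2 fell in each line and none rose with TMM, and all 3 fell in each line on plain totals.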

How the data were processed

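RNA from HT55 and SW948 cells was made into TruSeq libraries and sequenced as single-end reads of 50 bp. Per the labels, the authors aligned reads to hg19 with TopHat, counted them with HTSeq and tested with DESeq, with no versions given and the annotation release not given in the sources used here. The deposited files hold raw read counts per gene, 54127 Ensembl identifiers each, with 5 closing totals that were left out. Reads aligning to several places (22.0% to 27.9% of reads per library) were in none of the genes, and use of strand in counting is not given in the sources used here.

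Counts were tested per line with edgeR 4.0.16 (R 4.3.3, quasi-likelihood, TMM, filterByExpr, 12133 genes in HT55 and 12505 in SW948), and over all 16 libraries (13249 genes) for the interaction and the control comparison, without covariates. The tests were checked on simulated data. The SE was derived from the fold change and F statistic. CPM is the count divided by library size and multiplied by 1000000, and RPKM is also divided by exon length in kilobases. RPKM used TMM over all 16 libraries, whereas the CPM of the 56 genes used TMM within each line. The study describes biological quadruplicates, but the labels do not say that numbers pair libraries, and same-numbered libraries correlated by -0.029 to 0.15 in their deviations, so no pairing was used. The highest value in each line was that of replicate 3, at 0.14 in HT55 and 0.15 in SW948. In both lines control replicate 3 correlated best with treated replicate 3. The cause was not tested. The depth of 8269406 to 11110814 counts gave every one of the 56 genes a mean of at least 100 counts in each line, though SPC25 fell to 23 in single libraries.

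Members, lists, pairs and tests were chosen with earlier results of these data known. Genes described one by one were a fixed list of 12 plus, by value, the 3 called most positive and most negative in each line (1 positive in HT55) and the 3 largest interactions, 20 in all, with others by role. Alternatives were plain totals, DESeq2 1.42.0 size factors and Wald test, other filters and thresholds, a replicate block, leaving out each library, top and mitochondrial genes left out, a GC and length offset, and 1 fit for both lines. Pairs used a prior count of 0.5.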

Additional observations from a re-analysis of the deposited data

Results flagged for a closer look

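Over 20 genes in 4 groups, 80 groups of 4 libraries were searched for a library far from its group, and chance marks about 1 in 20. Dixon's ratio marked 2, treated SW948 replicate 2 as low for CDC20 (0.859) and HT55 control replicate 4 as high for PTTG1 (0.859).

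The response to itraconazole differed between the lines by the interaction test (edgeR, adjusted p under 0.05) for 15 of the 20 genes. Over all genes tested 24.8% were called higher in SW948 and 29.1% lower. Some of the 20 genes were picked for a large change or interaction, so this count was partly fixed by the choice. On the log2 scale the response in SW948 was above that in HT55 by 1.81 for NEK2, 1.69 for AURKB, 1.65 for CCNA2, 1.58 for PTTG1, 1.39 for CDC20 and 1.04 for AURKA. The gap was smaller for PLK1 (0.84), CCNB1 (0.83), CDK1 (0.72) and TOP2A (0.59). It had the other sign for ASPM (-1.96), SPC25 (-1.39), FOXM1 (-0.88), MKI67 (-0.58) and CENPE (-0.45).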

How the results depend on the processing

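DESeq2 size factors, the DESeq2 Wald test, both other filters, leaving out the top and mitochondrial genes and a stricter adjusted p of 0.01 kept all 8 counts of called genes within 1.5 times, and all of these that recompute the medians kept both medians within the spread of treated libraries. Plain totals changed most. They gave 0 rises in HT55, 19 rises and 23 falls in SW948 and 8 genes lower in the interaction, moved the medians to -0.49 in HT55 and -0.095 in SW948, and reversed AURKA (-0.008), CDC20 (-0.068) and PTTG1 (-0.066) in HT55, none of which passed, CDC25B in SW948 (-0.23) and the HMMR interaction (-0.099). The GC and length offset gave 2 rises in HT55 and reversed NEK2 in HT55 (0.0038) and CDC25B in SW948 (-0.0056), ended the HT55 calls of CDK1 (-0.075), CCNB1 (-0.22) and SPC25 (-0.40) and added those of FOXM1 in HT55 (-0.46, adjusted p = 0.0273) and the MYBL2 interaction (-0.77, adjusted p = 0.0158). DESeq2 size factors ended the CENPE interaction (adjusted p = 0.0518). The use of 1 fit on all libraries also gave 2 rises in HT55 and added a rise of CDC25B in SW948 (0.13, adjusted p = 0.0483). A minimum log2 change of 0.5 left 0 rises and 14 falls in HT55 and 3 genes higher in SW948 controls. Leaving out 1 library at a time gave 1 to 5 rises and 28 to 41 falls in HT55, 28 to 31 rises and 11 to 17 falls in SW948, and 4 to 8 genes lower in the interaction. It spanned 0 for AURKA (-0.038 to 0.36), CDC20 (-0.16 to 0.29), PTTG1 (-0.13 to 0.26) and NEK2 (-0.31 to 0.0082) in HT55, the HMMR interaction (-0.083 to 0.31) and the SW948 CDC25B/CDC25C ratio (-0.056 to 0.21). The replicate block, not a pairing by design, gave 36 falls in HT55, 30 rises and 14 falls in SW948 and 37 higher and 6 lower in the interaction, and among the genes described one by one it added calls for FOXM1 in HT55 (adjusted p = 0.0147) and the MYBL2 interaction (adjusted p = 0.0389). For the pairs, a block cannot reach a p under 0.125, so it bears on values only. Leaving out any 1 HT55 control moved AURKA/AURKB, KIF20A/KIF11 and UBE2C/CDC20 in HT55 to an exact p of 0.0571, and AURKA/AURKB in SW948 reached 0.0286 with a prior count of 2 or without DMSO replicate 2. The causes were not tested. Whether depth limited any call was not tested. The lowest counts among the 56 genes were 23 for SPC25 and 63 for ASPM, both in SW948 with itraconazole, and 4 libraries per group limited the pairs.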
